A study of Mus musculus with 167 samples.

Results

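The let-7 and miR-98 family was followed in 5 tissues of mice given a single whole-thorax exposure to X-rays or a sham exposure. Its 9 members, mmu-let-7a-5p, mmu-let-7b-5p, mmu-let-7c-5p, mmu-let-7d-5p, mmu-let-7e-5p, mmu-let-7f-5p, mmu-let-7g-5p, mmu-let-7i-5p and mmu-miR-98-5p, were chosen by name from 1915 mature miRNA rows, and all 9 had at least 1 count in each of 167 small RNA libraries. They are written below without the prefix and the 5p suffix. The libraries came from lung, heart, brain and the white (WBC) and red (RBC) blood cell fractions of 35 animals. C3H (C3Hf/Sed/Kam) mice, all female in these libraries, were taken at month 4, the time of pneumonitis in that strain, and C57Bl/6 (C57) mice at month 6, the time of fibrosis. In lung, heart, brain and RBC there were 7 irradiated and 8 sham C3H libraries, and 5 irradiated (4 male, 1 female) and 15 sham (8 male, 7 female) C57 libraries. In WBC there were 6 irradiated and 5 sham C3H, and 5 irradiated and 11 sham (7 male, 4 female) C57 libraries. All were irradiated or sham irradiated as young adults, under anaesthesia and with the body outside the thorax shielded, and the irradiated groups hold only animals alive at the endpoint. Strain and month cannot be told apart, nor can tissue and the table in which each tissue's libraries were counted.

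let-7 miRNAs are among the most abundant in adult tissue. A miRNA finds its target mRNAs mainly by pairing of its seed, bases 2 to 8 from the 5′ end, so members with 1 seed share most predicted targets, and repression of growth genes such as Ras, Myc, Hmga2 and Lin28 is the textbook role of the family. LIN28 proteins block maturation of let-7 precursors in embryonic cells, and mature let-7 rises as cells differentiate.

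The mature sequences (RefSeq, GRCm38.p6) are shown because the members differ by so few bases. A read can be assigned to one member only if those bases are read correctly. Capitals mark the seed, identical in all 9.
let-7a: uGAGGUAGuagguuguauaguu
let-7b: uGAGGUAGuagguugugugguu
let-7c: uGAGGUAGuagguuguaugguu
let-7d: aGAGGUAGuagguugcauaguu
let-7e: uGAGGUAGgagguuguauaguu
let-7f: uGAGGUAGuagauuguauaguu
let-7g: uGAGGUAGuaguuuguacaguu
let-7i: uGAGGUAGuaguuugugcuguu
miR-98: uGAGGUAGuaaguuguauuguu

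Each is 22 nt long. Counted from 1 at the 5′ end with the let-7a base first, let-7c carried A19G, let-7e U9G and let-7f G12A. let-7b carried A17G and A19G, let-7d U1A and U16C, let-7g G12U and U18C, and miR-98 G11A and A19U. let-7i was the most distant, with G12U, A17G, U18C and A19U. Of the 36 pairs of members, 4 differed at 1 base and 10 at 2. How reads that match several members were assigned is not given in the sources used here, so members 1 base apart (let-7a with let-7c, let-7e and let-7f, and let-7b with let-7c) are the most exposed to exchange of reads. Other rows with this seed were let-7k, with at most 3 counts in any library, and miR-1961, with 0.

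The members arise from 12 annotated hairpins (GRCm38.p6). let-7d, let-7f-1 and let-7a-1 lie in a row on the minus strand at chr13:48536012-48536114, chr13:48537829-48537917 and chr13:48538179-48538272, within exons of the lincRNA 6720427I07Rik. let-7c-2 (chr15:85706603-85706697) and let-7b (chr15:85707319-85707403) sit 621 bases apart in an exon of Lncppara. let-7f-2 (chrX:151912346-151912428) and miR-98 (chrX:151913214-151913321) sit 785 bases apart in an intron of Huwe1, a ubiquitin ligase gene. The single let-7i hairpin (chr10:122985640-122985724, minus strand) lies in an exon of D630033A02Rik, let-7e (chr17:17830352-17830444) in an intron of Spaca6, let-7g (chr9:106178840-106178927) in an intron of Wdr82, and let-7c-1 (chr16:77599657-77599750) in an intron of Mir99ahg.

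Total counts ran from 1795000 to 7865100 per library, with tissue medians of 2966600 (brain) to 4172570 (WBC), and levels are given as RPM, a member's counts after scaling every library to the same total, or as shares of library counts. Heart, brain and lung labels held in 35 of 35 libraries each by miR-208a-3p (cardiac muscle), miR-124-3p (neurons) and miR-34c-5p (ciliated epithelium), each above its level in every library of another tissue. The fixed marker lists did not tell the blood fractions apart. Summed erythrocyte markers covered 31039 to 106323 RPM in sham RBC and 23204 to 106907 RPM in sham WBC, and summed leukocyte markers 17656 to 45244 and 15266 to 33448 RPM. The C3H irradiated heart replicate 3 stood apart from its group, with 50690 RPM of summed cardiac muscle markers against 152407 to 246805 in the other 6, and results that rest on it are given with and without it. In homogenates, fewer cells of a type and less RNA per cell cannot be told apart.

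The family was a large part of the miRNA counts of every sham tissue. The share of library counts was 12.5% ± 1.55 (SD, n = 23) in heart, 17.5% ± 1.53 (n = 23) in lung, 23.1% ± 4.57 (n = 16) in WBC, 24.0% ± 2.68 (n = 23) in brain and 26.7% ± 6.98 (n = 23) in RBC. Heart was lowest and lung next, while brain and the blood fractions lay within 1 SD of each other. The single most abundant miRNA of each tissue, miR-126a-3p in lung and heart and miR-16-5p in blood, weighs on these shares. With it taken out of the total the family made up 47.1% in RBC, 41.1% in WBC, 27.6% in lung, 27.5% in brain and 18.1% in heart, and lung no longer lay below brain.

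**Figure D1:**
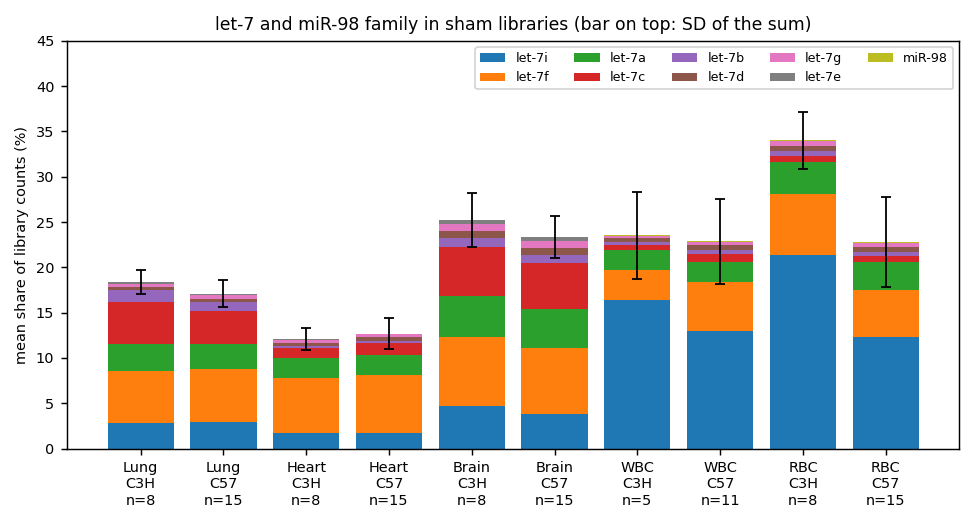
Mean share of library counts (%, y axis) of the 9 members, stacked, in the sham groups of each tissue and strain (x axis, n under each bar), with the SD of the sum as the bar on top. let-7i fills most of the blood columns, let-7f most of the heart columns, and the RBC column of C3H is taller than that of C57.

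By mean share let-7i led in both blood fractions and let-7f in lung, heart and brain. let-7i made up 59.8% ± 10.4 of family counts in sham WBC and 56.4% ± 7.34 in sham RBC, against 13.5% to 20.1% in brain, 16.4% ± 2.51 in lung and 13.6% ± 1.76 in heart. The lowest blood library (42.2%) lay above the highest library of the solid tissues (25.7%, lung). let-7f led in heart with 50.5% ± 3.26 of the family and in lung (33.4%) and brain (31.1%), and made up 22.0% in RBC and 21.6% in WBC. let-7c followed in lung (22.6%) and brain (21.4%) but made up 9.57% in heart, 3.26% in WBC and 2.67% in RBC. let-7a ranged from 9.37% in WBC to 18.5% in brain, let-7d from 2.17% to 3.22%, let-7g from 1.57% to 2.97% and miR-98 from 0.151% to 0.223%. let-7i was the second most abundant of all miRNAs in 26 of 27 WBC and 34 of 35 RBC libraries, while let-7f had a median rank of 2 in brain and 3 in lung and heart.

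By level, let-7i ranged over 73932, 168062 and 251274 RPM (lowest, median, highest) in sham RBC and 71300, 140570 and 229237 RPM in sham WBC. It ranged over 27282, 40271 and 60219 RPM in brain, 22983, 26885 and 54492 RPM in lung, and 11496, 16687 and 27701 RPM in heart. Among shams every blood library lay above every solid-tissue library, while the C3H irradiated heart replicate 3 (72569 RPM) lay above the lowest WBC sham. With limma-voom on library size alone, and both strains weighted equally, lung lay 2.47 log2 units below RBC (log2 difference -2.47, 95% interval -2.68 to -2.27, adjusted p = 6.6e-54), heart 3.22 below (-3.22) and brain 1.92 below (-1.92). The sign held with quantile and TMM normalisation. RBC and WBC did not differ beyond the spread on library size alone (WBC minus RBC -0.18, -0.39 to 0.03, adjusted p = 0.18) or with quantile normalisation (-0.01, adjusted p = 0.94). With TMM WBC lay below RBC (-0.59, -0.85 to -0.32, adjusted p = 9.0e-05).

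let-7e was lowest in blood and had the widest range, with brain, lung and heart in the same order as for let-7i. Sham brain held 3071, 4311 and 5912 RPM, lung 969, 1436 and 2088, heart 325, 485 and 668, WBC 19.7, 127 and 539, and RBC 2.01, 16.9 and 52.8 RPM. Brain, lung and heart did not overlap, WBC reached into the range of heart, and in RBC the values rest on few reads (lowest 6, median 60 per library). On library size alone brain exceeded RBC by 8.19 log2 units (7.82 to 8.56, adjusted p = 1.5e-88), which became 6.11 with TMM and 4.97 with quantile normalisation. Lung exceeded heart by 1.59 and lay below brain (-1.53), and WBC exceeded RBC by 2.66 (± 0.232 SE).

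let-7c and let-7b shared a high level in lung and brain. let-7c ranged over 26554, 41218 and 56063 RPM in sham lung, 34689, 48219 and 75659 RPM in brain and 7546, 10308 and 25162 RPM in heart, so lung lay above every heart library. It exceeded RBC by 2.60 log2 units in lung and 2.93 in brain. let-7b had a mean of 10771 RPM in lung, 9360 in brain, 4609 in RBC, 4066 in WBC and 2459 in heart. Lung exceeded heart by 2.32 (1.98 to 2.67, adjusted p = 1.1e-26). On library size alone lung and brain did not differ beyond the spread (0.31, -0.01 to 0.62, adjusted p = 0.068). Lung exceeded brain with quantile normalisation (0.91, adjusted p = 1.1e-05) and with TMM (1.41, adjusted p = 1.3e-12).

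The other 5 members varied by 2.27-fold or less between tissue means. let-7f differed least, from 47535 RPM in WBC through 56986 in RBC, 58460 in lung and 62744 in heart to 74220 in brain, and lung against heart, lung against RBC and heart against RBC did not pass. let-7a had 44196 RPM in brain, 32768 in RBC, 28028 in lung, 22552 in heart and 21764 in WBC, and heart and WBC did not differ beyond the spread. let-7d ranged from 3465 RPM in heart to 7692 in brain, let-7g from 3375 in WBC to 7013 in brain, and miR-98 from 264 in lung and heart to 573 in RBC. Lung and heart did not differ beyond the spread for let-7d, let-7g or miR-98.

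Counting members that differed between sham tissues at an adjusted p under 0.05, lung against heart gave 5 higher and 0 lower (65.9% of 542 miRNAs tested were called), lung against brain 0 and 8 (87.5%), and heart against brain 0 and 9 (88.6%). Lung against WBC gave 6 and 3 (86.7%), lung against RBC 3 and 4 (85.2%), heart against WBC 3 and 4 (90%) and heart against RBC 2 and 6 (86.5%). Brain against WBC gave 8 and 1 (90.6%) and brain against RBC 7 and 1 (93.2%), the exception being let-7i in both. WBC against RBC gave 1, let-7e, and 4 (37.6%). Most miRNAs differed between tissues, so these counts do not set the family apart, and the scaling matters: the median over all 542 was 3.71 log2 units for brain minus RBC on library size alone, 1.63 with TMM and -0.18 with quantile normalisation. With TMM 28 of the 75 calls on members changed direction and with quantile normalisation 12, most of them with brain on 1 side (TMM 24, quantile 9). let-7a, let-7b, let-7d and let-7g turned from higher to lower in brain than in RBC with both, and let-7f with TMM.

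**Figure D2:**
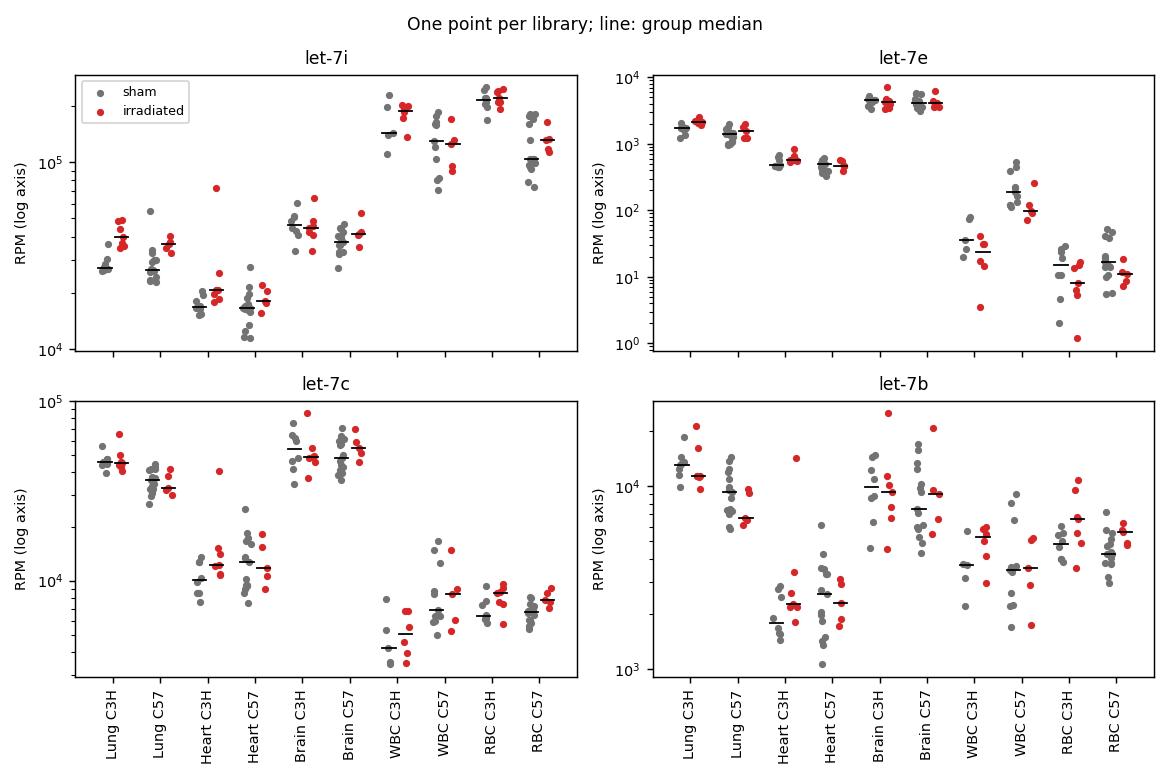
Levels of let-7i, let-7e, let-7c and let-7b in RPM (y axis, log scale) in each library by tissue and strain (x axis), sham in grey and irradiated in red, with group medians as lines. let-7i sits highest in both blood fractions and let-7e lowest there.

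Irradiation was tested within each tissue and strain with limma-voom and quantile normalisation, as in the study. No member changed in any of the 10 comparisons (0 of 9 each), none changed differently between strains in any of the 5 tissues, and none changed differently between lung and heart in either strain, although miR-98 passed for lung minus heart in C3H on library size alone (0.68, 0.33 to 1.02, adjusted p = 0.0044). In lung 33.4% of 350 miRNAs tested were called in C3H and 16.6% in C57, with 0.286% for the strain difference. In heart 16.7% of 312 were called in C3H and 3.53% in C57, with 0% for the strain difference. In brain (433 tested), WBC (291) and RBC (229) 0% were called in either strain or for the difference between strains. The lung minus heart comparison called 6.68% of 374 in C3H and 5.61% in C57. At an unadjusted p under 0.05 there were 3 members in C3H lung, 2 in C3H heart, 4 in C57 brain, 2 in C3H RBC and 0 in each of the other 6 comparisons. The share of all miRNAs at that unadjusted threshold is not given here, so these counts are not read as a result about the family. The count of 0 depended on the fit in several tissues, as given below. Quantile normalisation sets libraries to 1 distribution. let-7i, at rank 2, took the same value in 34 of 35 RBC and 26 of 27 WBC libraries. let-7f did so in 31 of 35 heart libraries, so few libraries differed in those members there. On library size alone let-7i did not pass for irradiation in RBC (adjusted p 0.83 in C3H, 0.98 in C57) or WBC (0.80, 0.98). Nor did let-7f in heart (0.75, 0.97).

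In C3H lung the quantile-normalised changes ran from -0.30 (let-7g) to 0.29 (let-7i), with let-7d closest to the threshold (-0.23 ± 0.0985 SE, adjusted p = 0.064). Leaving out 1 library gave 1 call in 5 of 35 removals (C57 sham replicates 8 and 12, C3H sham replicate 1, C3H irradiated replicates 1 and 2) and 2 without C3H sham replicate 8. In RPM, 3 members were high in the irradiated lungs. let-7i ranged over 34603, 39650 and 49178 RPM in the 7 irradiated C3H lungs and 26181, 27299 and 36407 in the 8 shams, so that 5 of 7 irradiated libraries lay above every sham. miR-98 ranged over 268, 345 and 411 RPM against 219, 250 and 294, with 6 of 7 above every sham. let-7e ranged over 1897, 2123 and 2550 RPM against 1240, 1718 and 2088, with 4 of 7 above every sham. let-7a, let-7d and let-7g went the other way, with 7 of 7 irradiated libraries below the sham median for each.

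On library size alone these 3 high members passed in C3H lung (33.1% of all called): let-7i by 0.52 (0.26 to 0.77, adjusted p = 0.0013), miR-98 by 0.46 (0.19 to 0.74, adjusted p = 0.0073) and let-7e by 0.39 (0.10 to 0.68, adjusted p = 0.033). The median of all miRNAs was 0.27 on that scale and -0.08 after quantile normalisation, so let-7i, miR-98 and let-7e lay above the middle of the distribution on both scales. edgeR, also with 3 calls (34.9% of all), called let-7a (-0.38, adjusted p = 0.0061), let-7d (-0.39, adjusted p = 0.0012) and let-7g (-0.47, adjusted p = 0.01) lower. Which members passed therefore depended on the scaling, with let-7i on the high side and let-7a, let-7d and let-7g on the low side in the quantile, library-size and edgeR fits. miR-126a-3p, the most abundant miRNA of lung and an endothelial marker, took 31.2% ± 4.36 of counts in irradiated and 38.7% ± 2.40 in sham C3H lungs. Its share moves every other RPM value, and its part in these differences was not tested. Summed endothelial markers covered 297017 to 390147 RPM in irradiated against 380361 to 444378 in sham C3H lungs, and summed leukocyte markers 2552 to 7019 against 3397 to 4826.

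Within the family let-7i also had a higher share in these lungs, a ratio that does not depend on scaling and that is given without a test. let-7i was 20.5% ± 1.83 of family counts in irradiated C3H lungs (17.9% to 23.3%, n = 7) and 15.6% ± 1.39 in shams (14.2% to 18.5%, n = 8). In C57 it was 20.2% ± 1.54 (18.5% to 22.4%, n = 5) against 16.9% ± 2.88 (13.9% to 25.7%, n = 15).

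In C57 lung let-7i ranged over 32829 to 40352 RPM in the 5 irradiated libraries (median 36373) and 22983, 26624 and 54492 RPM in the 15 shams, with 5 of 5 above the sham median and none above the highest sham. On library size alone it passed (0.36, 0.10 to 0.61, adjusted p = 0.040; 20.6% of all called, median of all 0.12), but the call was lost in 9 of 20 removals of 1 library. With 4 irradiated and 8 sham males alone (6.5% of all called) it was 0.26 (-0.06 to 0.58, adjusted p = 0.38). The highest sham, replicate 4, also had the highest summed leukocyte markers of its group (9748 RPM, others 2393 to 8303). Those markers covered 5564 to 6829 RPM in irradiated C57 lungs, and their part was not tested.

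**Figure D3:**
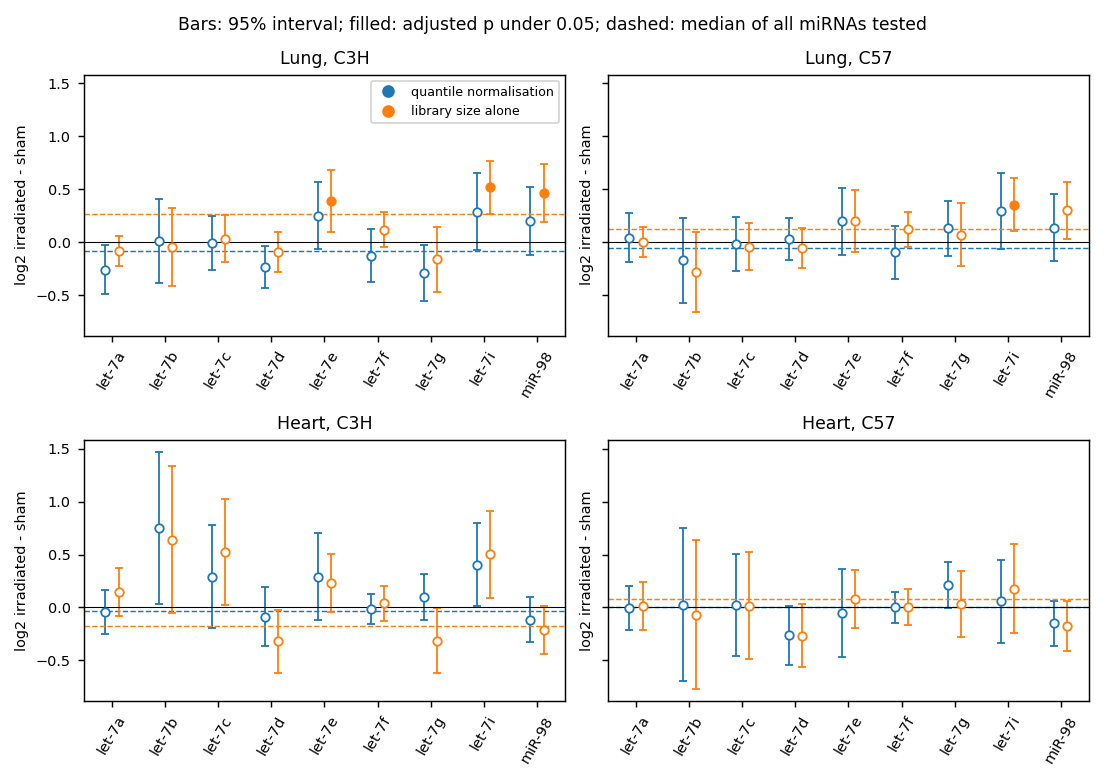
Log2 change, irradiated minus sham, of each member (x axis) in lung and heart of both strains under quantile normalisation (blue) and library size alone (orange), with 95% intervals, filled points at an adjusted p under 0.05 and the median of all miRNAs dashed. Filled points appear on library size alone, for let-7e, let-7i and miR-98 in C3H lung and let-7i in C57 lung.

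In C3H heart the quantile-normalised changes were largest for let-7b (0.75, 0.03 to 1.47, adjusted p = 0.14) and let-7i (0.41, adjusted p = 0.14). All 7 irradiated hearts lay above the sham median for let-7b, let-7c, let-7e and let-7i. let-7b ranged over 1799, 2253 and 14210 RPM against 1440, 1785 and 2841 RPM in shams, let-7c over 10766, 12210 and 40710 against 7608, 10043 and 13581, and let-7i over 17832, 20691 and 72569 against 15236, 16885 and 20518. The highest value of each was replicate 3, the library with few cardiac muscle markers. Without it the irradiated hearts reached 3375, 15243 and 25530 RPM, and the quantile-normalised changes became 0.38 for let-7b (adjusted p = 0.43), 0.16 for let-7c (adjusted p = 0.66) and 0.17 for let-7i (adjusted p = 0.44). edgeR called these 3 members (let-7b 1.36, adjusted p = 0.024; let-7c 0.92, adjusted p = 0.037; let-7i 0.94, adjusted p = 0.023; 19.9% of all called), but 0 without irradiated replicate 3, 0 without sham replicate 4 and 2 without sham replicate 3 or 6. The same library had the lowest let-7d (1309 RPM, others 2815 to 3281) and let-7g (1795 RPM, others 3150 to 4046). In C57 heart changes ran from -0.26 (let-7d) to 0.21 (let-7g).

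**Figure D4:**
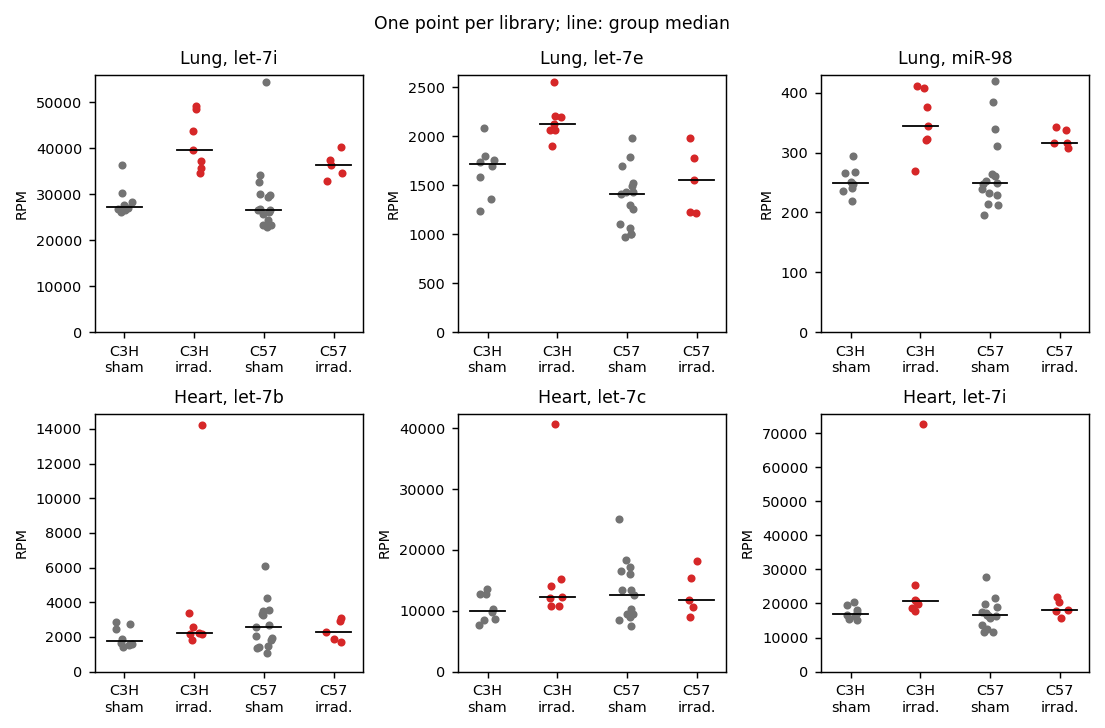
RPM (y axis, from 0) of let-7i, let-7e and miR-98 in lung and of let-7b, let-7c and let-7i in heart, 1 point per library, in sham and irradiated C3H and C57 mice (x axis), with group medians as lines. In heart 1 irradiated C3H library, at 14210 RPM of let-7b and 72569 RPM of let-7i, lies far above the rest.

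Brain, which was shielded, and the circulating WBC and RBC gave no call. In C57 brain let-7a (-0.22), let-7d (-0.34), let-7f (-0.14) and let-7g (-0.36) had the lowest changes (adjusted p 0.24 to 0.37), and for each of them 5 of 5 irradiated libraries lay below the sham median. Males made up 4 of the 5 irradiated animals. Sham males had lower brain means than sham females for let-7a (40814 against 46781 RPM), let-7d (7739 against 8107) and let-7f (72570 against 73398). For let-7g the male mean was higher (7337 against 6169 RPM). In C3H brain the changes ran from -0.16 to 0.11. In the blood fractions let-7e had the lowest changes. The WBC median of C3H was 23.9 RPM after irradiation and 35.8 RPM in shams (log2 -0.86, adjusted p = 0.69). The C57 medians were 96.1 and 186 RPM (-0.74, adjusted p = 0.86). RBC means were 9.47 (irradiated) against 15.7 RPM (sham) in C3H and 11.5 against 22.0 RPM in C57, where sham males, the sex of 4 of the 5 irradiated animals, had a mean of 12.3 RPM. None of these 4 differences passed. In C3H RBC edgeR called let-7b (1.15, adjusted p = 0.03) and let-7c (0.75, adjusted p = 0.032; 5.24% of all called), with 0 calls in 10 of 15 removals of 1 library.

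Among sham animals RBC let-7i differed between the sexes. It ranged over 168062 to 251274 RPM in C3H females (mean 213718 ± 26358, n = 8), 103855 to 181525 in C57 females (157713 ± 29339, n = 7) and 73932 to 103754 in C57 males (92641 ± 11033, n = 8). Males and females of C57 did not overlap, although the highest male (103754) and the lowest female (103855) nearly met. On library size alone males lay below females (log2 -0.75, -0.98 to -0.52, adjusted p = 3.6e-05; 15.5% of 278 called, median of all -0.13), and so they did with edgeR (-0.70, adjusted p = 0.023), DESeq2 (-0.80, adjusted p = 0.0016) and TMM (-0.62, adjusted p = 0.045). The library-size call held in 23 of 23 removals of 1 sham library. Quantile normalisation, which left let-7i with 2 distinct values in RBC, gave -0.14 (adjusted p = 0.37).

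The order held within each of 2 letters in the library titles, whose meaning is not stated: with letter A 131865 to 177009 RPM in females and 91927 to 103330 in males, and with letter B 103855 to 181525 and 73932 to 103754. The means kept this order within the family, of which let-7i made up 62.7% ± 3.26 in C3H females, 58.2% ± 6.28 in C57 females and 48.6% ± 2.29 in C57 males, although the lowest C57 female (45.9%) lay within the range of the males (44.5% to 51.3%). miR-16-5p, the most abundant miRNA of RBC, had shares of 35.4% ± 2.88, 45.8% ± 8.43 and 50.9% ± 2.38 in the same order, and its part was not tested. Summed erythrocyte markers had a mean of 50423 RPM in C57 females and 51030 in males, and summed leukocyte markers 26983 and 26306. Family shares of library counts in RBC were 27.0% ± 3.89 in C57 females and 19.0% ± 1.47 in C57 males, and 8 of 8 males lay below every female.

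C3H against C57 females gave a log2 difference of 0.46 for RBC let-7i on library size alone (0.23 to 0.68, adjusted p = 0.0033; 15.5% called, median of all 0.034). It did not pass with quantile normalisation, where its values were tied (difference 0, adjusted p = 1), and edgeR called 0 members for strain in RBC. The 4 irradiated C57 males had 112608, 117470, 130486 and 132559 RPM of RBC let-7i, above all 8 sham males, and the 1 irradiated female had 164033, within the sham females. Among males alone, on library size (0% of all called), this was 0.42 (0.19 to 0.65, adjusted p = 0.092), so it did not pass over all miRNAs, and the adjusted p ran from 0.070 to 0.27 as single libraries were left out.

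**Figure D5:**
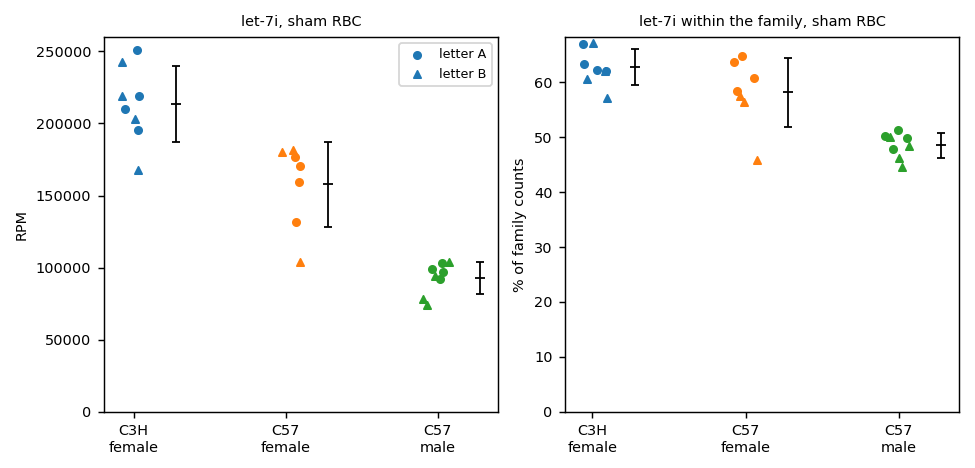
let-7i in sham RBC libraries as RPM (left) and as % of family counts (right), by strain and sex (x axis), with the title letter as symbol and mean ± SD beside the points. C57 males lie at 73932 to 103754 RPM, below every female.

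let-7e also differed in blood. In RBC it ranged over 14.2, 39.0 and 52.8 RPM in C57 females, 5.61, 12.5 and 20.6 in C57 males and 2.01, 14.9 and 28.8 in C3H females. C3H females lay below C57 females (-1.30, -2.19 to -0.41, adjusted p = 0.032; 18.3% of 278 called, 15.5% on library size alone), as did C57 males (-1.26, -2.14 to -0.39, adjusted p = 0.043; 14.4% called). The strain call was lost without C57 sham replicates 9, 10 or 11 or C3H sham replicates 2 or 6, and the sex call in 9 of 35 removals. In WBC the sexes stood the other way round for this member, with 165 to 539 RPM in 7 males, all above the 114 to 132 RPM of 4 females. No member passed for sex in WBC (11.1% of 341 called, let-7e 0.71) or for strain (22.3%), although on library size alone let-7e was lower in C3H (-1.57, adjusted p = 0.023; 32.6% called, median of all -0.75), with 5 of 5 below every C57 female. Summed leukocyte markers in WBC were also higher in males (23819 to 33448 RPM) than in females (16287 to 19887), and their part was not tested.

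In heart 2 members were lower in C3H than in C57 females (31.6% of 367 called), let-7c (-0.65, -1.07 to -0.22, adjusted p = 0.021) and let-7d (-0.42, -0.66 to -0.17, adjusted p = 0.013). let-7c ranged over 7608, 10043 and 13581 RPM in C3H and 9509, 13465 and 25162 in C57 females. In RPM let-7d hardly differed, with means of 3396 in C3H and 3535 in C57 females. Of its 8 C3H libraries 2 lay above every C57 female and 3 below. In C57 hearts 4 members were lower in males (34.9% called): let-7c (-0.67, adjusted p = 0.016), let-7e (-0.55, adjusted p = 0.023), let-7i (-0.51, adjusted p = 0.026) and let-7d (-0.31, adjusted p = 0.048). let-7i ranged over 11496, 14719 and 19873 RPM in males and 16352, 17420 and 27701 in females, with 6 of 8 males below every female. For let-7d the means were close, 3472 RPM in males and 3535 in females, with 2 of 8 males above every female and 3 below. let-7g (3700.5 against 2974 RPM) and miR-98 (277 against 232 RPM) had higher means in males, each with 7 of 8 males above every female. Neither passed with quantile normalisation. Single libraries decided several of the heart calls. let-7i was lost without C57 sham replicates 6, 8 or 15, and let-7d for sex in 23 of 35 removals. let-7c for strain was lost without C3H sham replicate 4 or C57 sham replicate 15. Library size alone moved the median of all miRNAs to 0.36 for strain and 0.31 for sex and left 0 and 1 of these comparisons' members past the threshold, the 1 being let-7f. Summed mesenchymal (43914 to 60126 against 36273 to 44262 RPM) and leukocyte markers (1672 to 2603 against 986 to 1592 RPM) were higher in male hearts, and their part was not tested.

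In brain males had less let-7b, with 4278, 5892 and 9245 RPM against 7071, 12413 and 16915 in females and 6 of 8 males below every female (-1.19, -1.79 to -0.60, adjusted p = 0.0052; 21.3% called, median of all 0.14). On library size alone it was -0.98 (adjusted p = 0.0083). let-7e (-0.48, adjusted p = 0.017) and let-7c (-0.35, adjusted p = 0.044) were also lower in males. Without C57 sham replicate 13 only let-7b passed, and let-7c was lost in 12 of 35 removals. Summed epithelial markers covered 172 to 2165 RPM in male and 352 to 41037 RPM in female brains, and their part was not tested. No member differed between strains in brain (15% called), with 1 call without C57 sham replicates 9 or 10. In lung let-7b was higher in C3H than in C57 females (0.73, 0.33 to 1.13, adjusted p = 0.0089; 14.4% of 397 called), with 9844, 13053 and 18579 RPM against 5834, 9818 and 14431, but it did not pass with edgeR, DESeq2, TMM or library size alone. With quantile normalisation no member differed between the sexes in lung (6.05% called), with 1 call without C57 sham replicates 3, 5 or 11. edgeR, DESeq2, TMM and library size alone each gave 1 call. In RPM miR-98 had a mean of 309 in males and 226 in females, with 7 of 8 males above every female. let-7b, let-7c and let-7e had lower means in male lungs.

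Some members varied together from library to library within groups. Over 167 libraries, as log2 RPM centred on each group, let-7b and let-7c, which share a cluster on chromosome 15 and differ at 1 base, had r = 0.886. let-7d and let-7f, neighbours on chromosome 13, had r = 0.743, from 0.17 in lung to 0.89 in RBC. let-7d and let-7g had 0.710, from 0.050 in brain to 0.96 in RBC. let-7g and miR-98 had 0.719, from 0.46 in WBC to 0.84 in brain. let-7b went against let-7g (r = -0.545). let-7f and miR-98, which share a cluster on chromosome X, had r = 0.561, from -0.11 in heart to 0.82 in RBC. let-7a, also of the chromosome 13 cluster, had r = 0.0458 with let-7d, with values from -0.39 in RBC to 0.40 in brain. With let-7f it had 0.120, from -0.13 in RBC to 0.48 in brain. These are descriptions over libraries that share depth and composition effects. GC content was 45.5% in let-7b, 40.9% in let-7c, let-7d, let-7e and let-7i, 36.4% in let-7a and let-7g, and 31.8% in let-7f and miR-98. Its part was not tested. The SD within groups was largest for let-7e (0.667 log2 units) and let-7b (0.562) and smallest for let-7f (0.213).

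The 3p arms, normally the less stable strand of the hairpin, were rare. let-7d-3p made up 2.99% of the counts of both arms, summed over libraries, in heart, 2.49% in lung, 1.25% in brain, 0.201% in WBC and 0.0928% in RBC, and let-7i-3p between 0.0354% and 0.267%. After irradiation in C3H 2 of 7 were called in lung and 1 of 7 in heart, beside 33.4% and 16.7% of all miRNAs, so these shares do not set the arms apart. let-7c-1-3p rose in lung (0.91 ± 0.256 SE, adjusted p = 0.0063) and fell in heart (-0.53 ± 0.168, adjusted p = 0.026), and the changes differed (1.56 ± 0.327, adjusted p = 0.0006). let-7d-3p fell in lung (-0.78 ± 0.283, adjusted p = 0.032). The other 5 of 7 tested in lung and 6 of 7 in heart did not pass, and none of 8 in brain, 3 in WBC or 2 in RBC did. The 3p arms of let-7a-1 and let-7c-2 have 1 sequence, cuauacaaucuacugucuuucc, yet their rows hold 3076 and 3142 counts and differ in 107 of 167 libraries, so those 2 rows are uncertain. Among shams let-7i-3p was higher in male than female C57 hearts (1.38 ± 0.368, adjusted p = 0.0059) and brains (0.65, adjusted p = 0.038), while let-7i itself was lower in male hearts.

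The miRNAs transcribed next to let-7 hairpins, miR-99a, miR-100 and miR-125b with let-7c-1 and let-7a-2, and miR-99b and miR-125a with let-7e, gave no call for irradiation (5 tested in lung, heart and brain, 4 in blood). Among sham hearts 5 of 5 were lower in C3H than in C57 females (31.6% of all miRNAs were called), with miR-100-5p at -1.09 and miR-99a-5p at -0.65 as the ends of the range, and 3 of 5 were lower in males (34.9%). In RBC 3 of 4 were lower in C3H (18.3%), miR-99a-5p by the most (-2.24 ± 0.461, adjusted p = 0.00059).

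Over the 20 group means, and among 152 miRNAs outside the family with a mean of at least 100 RPM, the summed family level was most like miR-222-3p (r = 0.862), miR-148b-3p (0.861), miR-320-3p (0.833), miR-425-5p (0.804) and miR-186-5p (0.788). Single members had closer partners: let-7e with miR-99b-5p (0.985), encoded next to it, let-7c with miR-183-5p (0.968) and let-7i with miR-425-5p (0.959). Within the family let-7c and let-7e (0.913) and let-7d and miR-98 (0.903) were most alike, and let-7e and let-7i least (-0.764). The 20 groups come from 5 tissues and are not independent points.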

How the data were processed

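RNA from lung, heart, brain, WBC and RBC was sequenced as miRNA libraries with molecular tags. The authors aligned the reads and deposited 1 table of raw counts per tissue, 1915 mature miRNAs by library; every value used here is such a count. No column lacked a sample (0).

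As in the study, limma-voom (limma 3.58.1, R 4.3.3) was used with quantile normalisation. The following were chosen here: rows kept by filterByExpr (minimum count 10, minimum total 15), the 4 strain and treatment groups of 1 tissue in a fit, and Benjamini-Hochberg adjustment over all miRNAs tested with a threshold of 0.05. Sham strain and sex were fitted with C57 split by sex, and sham tissues on library size alone. The alternatives were edgeR 4.0.16 (quasi-likelihood), DESeq2 1.42.0, TMM, library size alone, other filters, and subsets of libraries. The fits were tested on simulated data. The text names every member, their 3p arms and cluster neighbours, and for likeness the miRNAs with the highest Pearson r. The members and lists were chosen with earlier results of these data known. Tissues of 1 animal share it by label: median correlations of their deviations ran from -0.0716 to 0.214. Counting error was below the spread between animals.

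Quantile normalisation gives equal values to miRNAs of equal rank, so top-ranked members can lose most of their differences. RPM shares depend on the most abundant miRNA. Total counts of 1795000 to 7865100 limit only let-7e in blood.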

Additional observations from a re-analysis of the deposited data

Results flagged for a closer look

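In groups of 4 to 10 libraries, 21 of 150 combinations of group and member or family sum had 1 library far from the rest by Dixon's criterion, of which chance gives about 1 in 20. Values are RPM, and the nearest other library of the group follows each.

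In C3H irradiated heart it was replicate 3 throughout, with let-7a at 34657 (24825), let-7b at 14210 (3375), let-7c at 40710 (15243), let-7i at 72569 (25530) and the family at 218411 (138934) as highest values, and let-7d at 1309 (2815) and let-7g at 1795 (3150) as lowest. Its summed markers were the lowest of 7 in 6 of 8 lists, cardiac muscle and erythrocyte among them, while its endothelial sum (408220) lay within the others (337464 to 416562).

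In C3H irradiated brain replicate 2 was highest for let-7b at 25047 (11278), let-7c at 85452 (54767) and let-7e at 7136 (4706), and lowest for let-7g at 4332 (7133) and miR-98 at 381 (483). Its summed neuronal markers were 104743, against 110314 to 143467 in the others. In C57 irradiated brain replicate 5, the only female of its group, was highest for let-7b at 20711 (9533) and let-7e at 6241 (4342).

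In lung, C3H irradiated replicate 1 was highest for let-7c at 65725 (49758), C3H sham replicate 8 lowest for let-7a at 24780 (28722) and let-7d at 2880 (3801), and C3H sham replicate 2 highest for let-7i at 36407 (30291). In C57 irradiated WBC replicate 2 was highest for let-7e at 259 (121) and replicate 4 for let-7f at 76460 (53519). In C3H sham brain replicate 5 was lowest for let-7f at 61264 (74074).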

How the results depend on the processing

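Counts of members past the threshold, with quantile-normalised limma-voom giving 0 for irradiation, changed as follows. C3H lung gave 3 with edgeR, DESeq2, TMM and library size alone, 2 with 1 strain at a time and 1 with letter B alone, and C57 lung 1 with library size alone. The 3 in C3H lung were not the same members in edgeR and on library size alone. edgeR called let-7a, let-7d and let-7g lower, and library size alone called let-7e, let-7i and miR-98 higher. C3H heart gave 3 with edgeR, 2 with DESeq2 and 1 with letter A alone, C57 heart 1 with DESeq2, and C3H RBC 2 with edgeR and DESeq2. Lung minus heart in C3H gave 1 with library size alone and 3 with TMM and edgeR. For strain, lung gave 0 with edgeR, DESeq2, TMM and library size alone and 2 with the stricter filter, heart 4 with edgeR, 5 with DESeq2 and TMM and 0 with library size alone, WBC 2 with edgeR and 1 with DESeq2, TMM and library size alone, and RBC 0 with edgeR and the stricter filter and 2 with library size alone. For sex, lung gave 1 with edgeR, DESeq2, TMM and library size alone, heart 7 with TMM and 1 with library size alone, and RBC 2 with edgeR, TMM and library size alone, 3 with DESeq2 and 0 with the stricter filter. Lung against heart gave 8 with TMM and edgeR, and WBC against RBC 9 with TMM and edgeR and 2 with C57 shams alone. The family share without the most abundant miRNA was 18.1% in heart, 27.5% in brain, 27.6% in lung, 41.1% in WBC and 47.1% in RBC, fewer counts in the total by construction. The cause of the other changes was not tested. Where the share of all miRNAs called is not given above for a fit, its count of members cannot be set against that share.

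As single libraries were left out, C3H lung gave 0 to 2 (2 to 3 on library size alone, 3 to 4 with edgeR), C57 lung 0 to 2 on library size alone, and with edgeR C3H heart gave 0 to 3 and C3H RBC 0 to 2. Strain gave 0 to 1 in brain and RBC (1 to 2 on library size alone), 1 to 3 in heart and 1 to 2 in lung. Sex gave 1 to 4 in brain, 2 to 5 in heart, 0 to 1 in lung and 0 to 1 in RBC (1 to 3 on library size alone). Heart against WBC gave 7 to 8 and WBC against RBC 5 to 6.

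Directions were followed one by one for part of the tissue differences, mainly those between neighbouring levels, and for members named in other comparisons, and turned as follows. Over all 75 calls on members between tissues, 28 turned with TMM and 12 with quantile normalisation. With letter B alone C3H lung let-7e was -0.073 and C3H heart let-7i -0.030. Of tissue differences called on library size alone, lung minus heart let-7a became -0.23 (quantile), -0.10 (TMM) and -0.12 (edgeR). Lung minus brain became 0.55 (TMM) and 0.58 (edgeR) for let-7i and 0.77 and 0.74 for let-7c, and lung minus WBC let-7f -0.11 with both. Heart minus brain became 0.41 with both for let-7d, and 1.28 and 1.30 for let-7f. Brain minus WBC (quantile, TMM, edgeR) became -0.028, -0.45 and -0.47 for let-7g and -2.62, -1.24 and -1.24 for miR-98, and (TMM, edgeR) -0.60 and -0.63 for let-7a and -0.85 and -0.86 for let-7f. Brain minus RBC (quantile, TMM, edgeR) became -0.65, -1.41 and -1.47 for let-7g, -0.95, -1.71 and -1.77 for let-7d, -0.15, -1.65 and -1.69 for let-7a and -0.31, -1.13 and -1.04 for let-7b.

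With the animal as a replicate block (consensus correlation 0.0175 for irradiation, 0.0570 for lung minus heart and 0.0239 for tissues), no count of calls changed and irradiation in C3H lung still gave 0. The comparison of C57 males alone was chosen after seeing the data. Depth limits let-7e in blood, and no other member.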

Other observations

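The strand balance of the hairpins differed between members and tissues. miR-98-3p made up 0.552% of the counts of both arms in heart, 0.538% in lung, 0.480% in brain, 0.184% in WBC and 0.0288% in RBC, summed over libraries, and let-7d-3p, the arm with the highest share of the 6 compared, likewise had its lowest share in RBC. Among sham hearts let-7d-3p (-1.21, adjusted p = 0.00088) and let-7e-3p (-0.89, adjusted p = 0.045) were lower and let-7i-3p (0.98, adjusted p = 0.043) higher in C3H than in C57 females by limma-voom. In C57 hearts miR-98-3p (1.76, adjusted p = 0.016) and let-7c-2-3p (0.86, adjusted p = 0.012) were higher in males, the latter with the reservation that it shares its sequence with let-7a-1-3p.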
